A study of Mus musculus with 2 samples.

Results

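The cells described here were the mesenchymal cells of a mouse inguinal white adipose tissue (iWAT) culture that held the most RNA of 4 genes, Fabp4, Cxcl14, Fndc1 and Meox1, which were used as marks of committed preadipocytes. A cell counted as mesenchymal if it had at least 1 unique molecular identifier (UMI, a tag that marks each captured RNA molecule) of Pdgfra and 0 UMIs of Epcam, Ptprc, Pecam1 and Sox10. The 10% of mesenchymal cells with the highest share of UMIs from the 4 genes were taken, and the 16 of them with 3 or more UMIs of Dpp4 were dropped. This left 1504 cells of 15196 mesenchymal cells, 29744 filtered iWAT cells and 57959 filtered cells in the whole series, and 13692 other mesenchymal cells served for comparison. Because the rule used measured values, the levels of the 4 genes, and groups made from them, are given as a description only.

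Stromal vascular cells, the non-adipocyte cells freed from fat by collagenase, came from pooled tissue of wild-type C57BL/6N mice aged 8 to 12 weeks. They were grown to 80% confluency in high-glucose medium. Per the labels, each depot gave 4 cultures, 1 without treatment and 1 each with FGF1, FGF2 and FGF8 (5.5 nM, 48 h), which were tagged with antibodies and pooled at 10000 cells each into 1 library. A second library of the same make came from interscapular brown adipose tissue (iBAT). The matrices used here carry no tag per cell, so each library is 1 sample that mixes 4 treatments, and neither treatment nor culture can be told apart from cell state. There was no replicate of either library. No test was therefore made, and every interval below is an exact 95% interval that covers counting error only.

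Adipose stroma is usually described as a series of fibroblast-like cells. Interstitial progenitors that express Dpp4 and Pi16 give rise to committed preadipocytes that express Icam1 and the nuclear receptor gene Pparg, and a further population marked by F3 (CD142), Clec11a and Gdf10 is known to restrain adipocyte formation. Pparg and Cebpa encode the transcription factors that drive the last steps of adipocyte formation. Cxcl14 encodes a secreted chemokine, Fabp4 a fatty acid carrier abundant in adipocytes, and Meox1 a homeobox factor of mesenchyme.

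The choice rested almost wholly on Cxcl14. Cxcl14 was the gene with the most UMIs among the 4 in all 1504 chosen cells, which had a mean of 125 Cxcl14 UMIs, against 2.43 of Fabp4, 1.22 of Fndc1 and 0.379 of Meox1. It made up 96.9% of their UMIs from the 4 genes. Fabp4 was seen in 64.0% of the chosen cells, Fndc1 in 42.8% and Meox1 in 17.6%. A ranking by Cxcl14 alone gave 1504 cells, of which 97.9% were among the chosen cells, whereas a ranking by Fabp4 alone gave 1476 cells, of which 31.2% were. The cells with the highest Fabp4 and those with the highest Cxcl14 shared 440 cells, 29.8% of the former and 29.3% of the latter. The cells are called Cxcl14-high cells below for this reason. The score was continuous across its threshold: per 1e+06 UMIs of a cell, the lowest score inside was 3569 UMIs and the highest outside was 3566, with 157 chosen cells and 157 others within 10% of it.

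Both groups of cells had nearly the same depth. The iWAT library held 29962 barcodes and 503611913 UMIs, and the Cxcl14-high cells had a median of 18494 UMIs and 4646 detected genes, against 18076 UMIs and 4718 genes in the other mesenchymal cells. Mitochondrial UMIs were 5.42% and 5.45%. Called doublets were 6 of the 1504 cells (0.399%, interval 0.147 to 0.866) and 149 of the 13692 (1.09%, 0.921 to 1.28). The 2 libraries shared 8 cell index numbers, 0.0267% of those in iWAT.

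Levels were summed over the cells of a group and given as counts per 1e+06 UMIs (CPM) of a total that left out the 4 genes. Of 3515 genes with 50 CPM or more in either group, 12 (0.341%) were 2-fold or more higher in the Cxcl14-high cells and 9 (0.256%) were 2-fold or more lower. Of the 12 higher genes 7 reached 50 CPM only in the Cxcl14-high cells, and of the 9 lower genes 7 only in the others. At 50 CPM or more in both groups, among 3183 genes, 5 (0.157%) were higher, namely Sfrp1, Sod3, Svep1, Pcsk5 and Ltbp2, and 2 (0.0628%) lower, namely Hmga2 and Arl4c. The median log2 ratio of the 3515 genes was -0.05, and 97.5% of them lay within 1.5-fold.

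Aoc3, which encodes a copper amine oxidase of the cell surface that is abundant in fat cells, stood at 106 CPM (103 to 110) in the Cxcl14-high cells and at 35.5 CPM (34.8 to 36.2) in the others, a log2 ratio of 1.58. Rarres2, the gene of the adipokine chemerin, was at 128 CPM (124 to 132) against 42.8 CPM (42.0 to 43.6), also a log2 ratio of 1.58. Sfrp1, a secreted Wnt antagonist, was at 336 CPM against 116 CPM, a log2 ratio of 1.53. These 3 genes were therefore close to 3-fold higher. Sod3, extracellular superoxide dismutase, was at 271 CPM against 109 CPM, a log2 ratio of 1.31. Next came the receptor gene Adcyap1r1 (log2 ratio 1.12), the Ras-like gene Rasl11a (1.11) and the membrane protein gene Gpm6b (1.11). The matrix and secretory genes Svep1, Srpx, Pcsk5, Mfap4 and Ltbp2 followed with log2 ratios of 1.05, 1.05, 1.05, 1.03 and 1.00.

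Ccnd1, which encodes the G1 cyclin D1, was the lowest, at 34.2 CPM (32.1 to 36.4) in the Cxcl14-high cells and 125 CPM (123 to 126) in the others, a log2 ratio of -1.87. Hmga2 and Hmga1, chromatin proteins of growing mesenchyme, had log2 ratios of -1.44 and -1.41, with Hmga2 at 150 CPM against 407 CPM. Mcpt8 and Gzme, serine protease genes, had log2 ratios of -1.53 and -1.37. In the Cxcl14-high cells 30.6% of the Mcpt8 UMIs lay in 10 cells, and the log2 ratios of both were -3.77 and -3.69 among cells with 0 UMIs of 6 cycling genes. Both lie on chromosome 14 within a family of similar genes, so the assignment of reads among the copies is uncertain. Their relatives Mcpt9 and Gzmd were lower too, with log2 ratios of -1.39 and -1.64 at no more than 8.01 and 11.9 CPM. The amino acid transporter gene Slc38a1 (-1.32), Arl4c (-1.16), Nrep (-1.05) and the homeobox gene Irx1 (-1.01) completed the lower group.

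**Figure D1:**
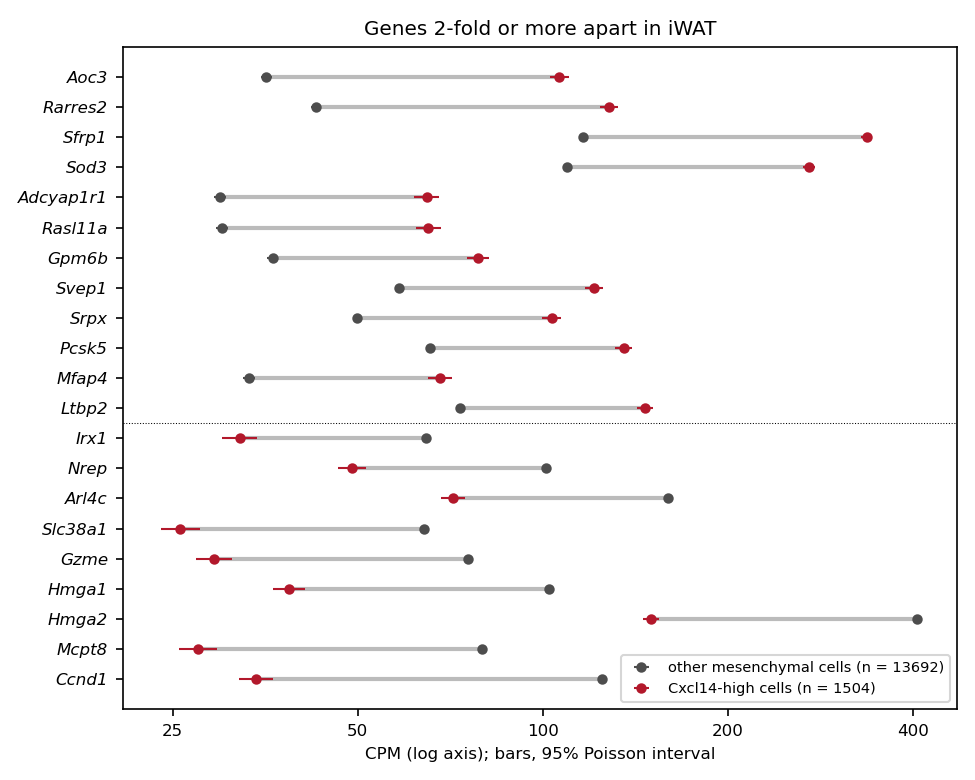
Levels of the 21 genes that were 2-fold or more apart in iWAT, as CPM on a log axis, in the 1504 Cxcl14-high cells (red) and the 13692 other mesenchymal cells (grey), with 95% Poisson intervals. Genes above the dotted line were higher in the Cxcl14-high cells, Aoc3 and Rarres2 by the most, and Ccnd1 at the foot had the largest difference in the other direction.

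Aoc3 is a protein-coding gene at chr11:101221370-101232962 on the plus strand in GENCODE M39 on GRCm39, the build named as mm39 in the submitters' notes. The 250 bases before the start of its canonical transcript are shown because Aoc3, with Rarres2 at the same log2 ratio of 1.58, led the higher genes, 5′ to 3′ along the gene. No annotated exon lies in the window. The window was searched on both strands for the box CCAAT, for the GC box written GGGCGG, for the AP-1 site written TGANTCA, for the C/EBP core written TTGCNNAA and for the nuclear receptor half-site written AGGTCA, and capitals would mark a match.
Aoc3, chr11:101221120-101221369, plus strand: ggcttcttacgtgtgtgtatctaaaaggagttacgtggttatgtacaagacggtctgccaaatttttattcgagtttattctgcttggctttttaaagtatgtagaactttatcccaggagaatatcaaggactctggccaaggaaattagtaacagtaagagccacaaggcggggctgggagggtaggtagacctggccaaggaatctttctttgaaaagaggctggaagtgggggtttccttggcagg
The window was 44.8% G and C and had 0 matches. Of 21757 protein-coding promoters of the same length, 36.5% held CCAAT, 36.3% the GC box, 13.1% AGGTCA, 9.34% TTGCNNAA and 6.18% TGANTCA. The lack of a match says only that these letters are not in the window.

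Genes of committed preadipocytes were in part higher. Of the 12 marker genes listed, 10 reached 5 CPM in either group, the level asked of listed genes. Pparg alone was 2-fold or more higher (0.545% of all 10275 genes at 5 CPM or more were), and 3 were 1.5-fold or more higher (1.81% of all genes), with 0 lower by either fold (0.642% and 2.29% of all genes were). Their median log2 ratio was 0.48, against -0.08 over all 10275 genes. Pparg stood at 21.6 CPM against 9.75 CPM, a log2 ratio of 1.15 (1.02 to 1.28). After each cell was thinned to 10000 UMIs, 16.8% of Cxcl14-high cells (14.9 to 18.9) and 8.21% of the others (7.73 to 8.71) had a Pparg UMI, and 2.30% of Epcam-positive cells without Pdgfra did, which serve here as the background level. Unthinned, these shares were 26.1%, 13.7% and 2.90% at median depths of 18494, 18076 and 11230 UMIs. Shallower cells, 129, 1412 and 1781 in the same order, were left out of all thinned shares.

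Col15a1, a basement-membrane-associated collagen, had a log2 ratio of 0.90 (486 against 260 CPM), and the adhesion molecule gene Icam1 one of 0.63 (40.4 against 26.1 CPM). Gpc3, Lpl (lipoprotein lipase) and Cebpa had log2 ratios of 0.51, 0.49 and 0.47. The remaining measured markers stood near the level of the other cells, with Ebf2 at a log2 ratio of -0.09. Dlk1 and Cd36 were under 5 CPM in both groups, Dlk1 at 0.994 against 1.45 CPM and Cd36 at 1.53 against 0.286 CPM. The 43 Cd36 UMIs of the Cxcl14-high cells lay in 8 cells, and the highest count in a cell was 34. The cells thus carried higher Pparg, Icam1 and Col15a1, and not all of the committed preadipocyte markers, so that the name of that cell type is not used for them.

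Adipocyte marker genes were at or near 0. All 9 adipocyte markers were under 5 CPM in both groups and summed to 0.75 CPM in the Cxcl14-high cells and 0.80 CPM in the others. On a longer list of 17 mature adipocyte genes, 1 reached 5 CPM, Pnpla2 at 11.8 against 12.9 CPM (log2 ratio -0.13). Cfd, Cidec and Pck1 had 0 UMIs, which at 3 counts allows up to 0.106 CPM, and Adipoq and Plin1 had 2 and 3 UMIs over all Cxcl14-high cells. Ucp1, the uncoupling protein gene of thermogenic fat, had 0 UMIs in the Cxcl14-high cells, which by the same limit allows up to 0.106 CPM. It had 16 UMIs in the more numerous other cells, which is 0.063 CPM, so no difference can be read from these counts. Ucp1 is named because the study is about it and not by a rule. Of 15 thermogenic genes listed, 3 reached 5 CPM. Ckb, the creatine kinase gene, was at 101 CPM against 71.1 CPM (log2 ratio 0.51), Cox7a1 at 14.2 CPM against 10.3 CPM (0.47), and Ebf2 is given above.

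Among adipogenic transcription factors, 15 of 20 were measured, and Pparg was the only one past 1.5-fold, with Egr2 next at a log2 ratio of 0.52. Cebpb and Cebpd, which act early in adipocyte formation, had log2 ratios of 0.21 and 0.17, and the median of the list was -0.02. Of 14 inhibitors of adipogenesis at 5 CPM or more in both groups, 0 were 1.5-fold apart, where 1.39% of all 9878 such genes were higher and 1.58% lower at that fold. A further pair reached 5 CPM only in the other cells, Gata3 at 4.15 against 8.10 CPM (log2 ratio -0.96) and Gata2 at 4.93 against 8.94 CPM (-0.86), the GATA factors that act against Pparg in preadipocytes. Genes of fat metabolism showed no common direction. Of 12 measured genes of fatty acid uptake and of 12 of fatty acid and triglyceride synthesis, 0 were 1.5-fold apart, and the lists had median log2 ratios of 0.07 and -0.10.

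Markers of the other adipose stromal states did not separate cleanly from this one. Gdf10, a BMP family ligand gene on the CD142 list, was at 41.3 CPM (39.0 to 43.7) against 15.9 CPM (15.4 to 16.4), a log2 ratio of 1.38, and was seen after thinning in 16.4% of Cxcl14-high cells, 7.09% of the others and 1.09% of Epcam-positive cells. Its log2 ratio was 0.68 when cells were chosen by Fabp4 alone and 0.98 with equal weight of the 4 genes. Clec11a (log2 ratio 0.99), Cygb (0.83) and Igf1 (0.80) were higher as well, Meox2 was at 5.57 against 3.78 CPM and so reached 5 CPM only in the Cxcl14-high cells, F3 stood at 0.30, and Aldh1a2, a retinoic acid synthesis gene, stood at -0.76. In all, 4 of 10 measured genes of the list were 1.5-fold or more higher and 1 was lower (1.81% and 2.29% of all genes). Of 8 measured interstitial progenitor markers, 0 were 1.5-fold apart, with Wnt2 at 0.40 and Ackr3 at -0.37, and Pi16 was under 5 CPM. The other mesenchymal cells included 646 with 3 or more Dpp4 UMIs, of which the Dpp4 limit had removed 16 from the top 10%. Against these 646 cells the log2 ratios were 3.11 for Adcyap1r1 (64.7 against 7.48 CPM), 2.94 for Meox2, 2.60 for Gdf10, 2.35 for Col15a1 and 1.31 for Pparg. Other genes stood below the level of those Dpp4 cells, with log2 ratios of -0.17 for Lpl, -0.23 for Gpc3, -0.26 for F3 and -0.26 for Ly6a. Further below were Cd55 (-0.82), Ackr3 (-1.45), Akr1c18 (-2.03) and Cd24a (-2.61).

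**Figure D2:**
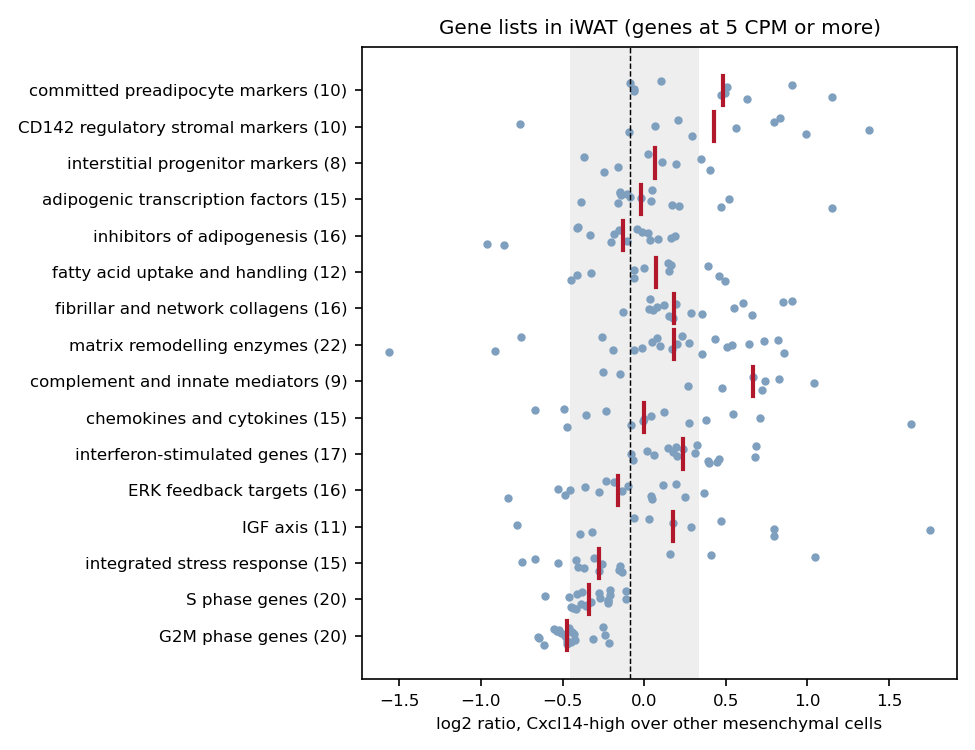
Log2 ratios of CPM, Cxcl14-high over other mesenchymal cells of iWAT, for the genes of 16 lists at 5 CPM or more in either group (number in parentheses). Red bars are list medians, the dashed line is the median of all genes at that level (-0.08) and the grey band holds the middle 90% of them (-0.45 to 0.33). The complement list has the highest median shown, and the S phase and G2M lists lie to the left of the dashed line.

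Of 8 complement and innate mediator genes at 5 CPM or more in both groups, 4 were 1.5-fold or more higher and 0 lower (1.39% and 1.58% of all such genes). C4b, at 6.92 against 3.37 CPM (log2 ratio 1.04), reached that level only in the Cxcl14-high cells, and with it the list median was 0.66. Serping1, the C1 inhibitor gene, was at 200 CPM against 113 CPM (0.82) and the protease gene C1s1 at 64.5 against 39.1 CPM (0.72). Clu and Masp1 stood at -0.25 and -0.15. Of 17 measured interferon-stimulated genes, 2 were 1.5-fold or more higher, Ifi27l2a and Ifi44 (both 0.68), and 0 lower. Of all genes at 5 CPM or more in either group, 1.81% were higher and 2.29% lower at that fold. The median of the interferon list was 0.24.

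Secreted signals differed gene by gene. Among FGF ligands, Fgf10 was at 29.3 CPM (27.3 to 31.4) against 11.1 CPM (10.7 to 11.6), a log2 ratio of 1.40, and was seen after thinning in 23.1% of Cxcl14-high cells, 8.97% of the others and 2.19% of Epcam-positive cells. Fgf18 (0.47), Fgf7 (0.22) and Fgf2 (0.06) were nearer to the other cells, Fgf2 at 305 against 292 CPM. The receptor gene Fgfr1 was at 259 against 299 CPM (log2 ratio -0.21). Of 16 measured feedback targets of the ERK pathway through which FGF receptors signal, 0 were 1.5-fold or more higher and 1 was lower, Dusp5 (-0.83). Of all genes, 1.81% were higher and 2.29% lower at that fold, and the list median was -0.16. Fgf21, counted on the stress response list, was at 23.5 against 11.4 CPM (1.04), but its log2 ratio was -0.22 among cells with 0 UMIs of 6 cycling genes, and 25.5% of its UMIs lay in 10 Cxcl14-high cells. It was the only 1 of 15 measured genes of that list that was 1.5-fold or more higher (1.81% of all genes). By the same fold 2 were lower (2.29% of all genes), Phgdh (-0.75) and Slc7a11 (-0.67), and the list median was -0.28.

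In the IGF axis, Igfbp2 had the largest log2 ratio of the listed genes at 5 CPM or more, 1.75 (16.0 against 4.76 CPM), but it reached 5 CPM only in the Cxcl14-high cells and few cells carried it. It was seen in 83 Cxcl14-high cells (5.52%), and the 10 cells with the most held 57.6% of its UMIs. Its log2 ratio was 1.11 after thinning and 0.02 among cells with 0 UMIs of 6 cycling genes. Ccl11, the eotaxin gene, was at 17.6 against 5.67 CPM (1.64) and was seen in 171 Cxcl14-high cells, with 37.3% of its UMIs in 10 cells. Its log2 ratio was -0.19 among the 156 Cxcl14-high and 1448 other cells with 0 UMIs of those 6 genes. Igf1 is given above, Igfbp3 had a log2 ratio of 0.79, and Igfbp5 one of -0.78. Of 17 measured TGF-beta and BMP genes, 2 were 1.5-fold or more higher and 2 lower (1.81% and 2.29% of all genes). Gdf10 and Ltbp2, given above, were higher. Ltbp1 (-1.09) and the BMP antagonist gene Grem1 (-0.85, 162 against 293 CPM) were lower. Of 11 measured Wnt genes, 1 was higher and 1 lower by that fold, Sfrp1, given above, and Dkk2 (-1.04). In the Cxcl14-high cells 50.2% of the Dkk2 UMIs lay in 10 cells. The medians of these lists were 0.06 and -0.10.

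Matrix genes are given by class. Of 16 measured collagen genes, 4 were 1.5-fold or more higher and 0 lower (1.81% and 2.29% of all genes), among them Col14a1 (0.85) and Col3a1 (0.66, 3786 against 2396 CPM). Of 27 measured glycoprotein and proteoglycan genes, 2 were 2-fold or more higher and 0 lower (0.545% and 0.642% of all genes). The 2 were Mfap4 and Lum, the gene of the collagen-binding proteoglycan lumican (28.4 against 12.6 CPM, 1.18). Of 22 measured matrix remodelling enzymes and inhibitors, 4 were 1.5-fold or more higher and 3 lower (1.81% and 2.29% of all genes), 1 of these by 2-fold (0.642%). Mmp3 (0.85, 943 against 522 CPM) and Adamts5 (0.82) were higher, and Mmp9 (-1.56, 3.12 against 9.22 CPM, above 5 CPM only in the other cells) and Mmp10 (-0.91) were lower. The metallothionein genes Mt2 and Mt1 had log2 ratios of 0.76 and 0.61. On the list of progenitor surface markers, Cd24a had the lowest log2 ratio of the listed genes at 5 CPM or more, -2.04 (6.53 against 26.8 CPM), and Ly6a, which encodes SCA1, had 0.60. Cd24a was at 381 CPM in Epcam-positive cells.

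Proliferation genes were lower by small folds. All 20 S phase genes and all 20 G2M genes were measured. The interval of the ratio lay below 0 on the log2 scale for 19 and 20 of them (44.4% of all 10275 genes). By 1.5-fold or more, 1 and 3 of the 20 were lower (2.29% of all genes). The median log2 ratios were -0.34 and -0.47, against -0.08 over all genes. Mki67 was at 72.7 against 111 CPM (-0.61) and Top2a at 137 against 190 CPM (-0.47). After thinning, 75.0% of Cxcl14-high cells (72.6 to 77.3) and 83.7% of the others (83.1 to 84.4) had a UMI of any of the 6 cycling genes. Unthinned, these shares were 85.3% and 89.9%.

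Several of these differences ran along the whole score, whereas others were largest at its upper end. The mesenchymal cells were ordered by score and cut into 10 equal parts. Because 2456 cells tied at a score of 0, the first part and much of the second have no order between them. From the first to the last part, Sfrp1 went from 45.9 to 336 CPM, Aoc3 from 16.8 to 106 CPM and Pparg from 6.19 to 21.6 CPM. Ccnd1 went from 201 to 34.7 CPM and Hmga2 from 611 to 151 CPM, each lower from part 3 on in every part than in the part before it. Of the 6 higher genes plotted, the step into the last part was the largest as a ratio for Rarres2, from 68.8 to 128 CPM. Gdf10 was nearly level at 24.0, 21.5 and 24.6 CPM in parts 7, 8 and 9 and stood at 40.5 CPM in part 10, and Lum was at 14.1, 18.6 and 28.5 CPM in the last 3 parts. The summed complement list likewise lay between 362 and 372 CPM in parts 6 to 9 and at 482 CPM in part 10. Ccl11 was low through most of the order and went from 6.48 CPM in part 8 to 13.0 and 17.7 CPM in parts 9 and 10. Fgf2 stayed between 272 and 307 CPM. Median depth was 16657 UMIs in the first part and lay between 17207 and 22104 in the others.

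**Figure D3:**
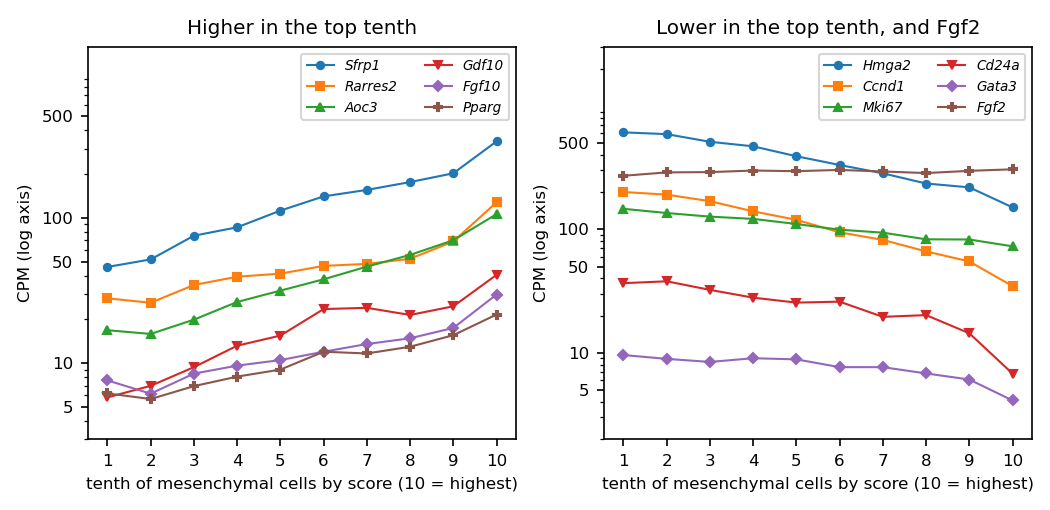
Levels of 12 genes, as CPM on a log axis, in 10 equal parts of the iWAT mesenchymal cells ordered by the share of their UMIs from the 4 genes. Sfrp1, Aoc3 and Pparg are highest in part 10, Ccnd1 and Hmga2 are lowest there, and Fgf2 is nearly level.

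The Cxcl14-high cells could not be split by which of the 4 genes led, since Cxcl14 led in all, and were split by Fabp4 instead, a choice made after the data were seen. Fabp4 was part of the score that chose the cells, so the values by Fabp4 group describe these cells only. Fabp4 had 0 UMIs in 542 cells, 1 or 2 in 500 and 3 or more in 462, and its highest count was 47. Between the cells with 3 or more and those with 0, only Rarres2 was 2-fold or more higher and only Igfbp4 2-fold or more lower (each 0.0294% of 3402 genes at 50 CPM or more). Rarres2 went from 71.3 CPM over 106 to 205 CPM with Fabp4, and Igfbp4 stood at 144 CPM without Fabp4 and 53.8 CPM with it, a log2 ratio of -1.42.

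Less abundant genes are given in the same groups. Pparg was at 12.1 CPM (9.97 to 14.5) in the cells without Fabp4, 22.1 CPM (19.2 to 25.3) in the middle group and 30.6 CPM (27.1 to 34.3) in the cells with 3 or more UMIs. Fgf10 was at 18.3, 28.8 and 40.6 CPM in the same order. Gdf10 ran the other way, at 52.0, 43.3 and 28.9 CPM, as did Igfbp2, at 26.6, 12.8 and 8.69 CPM. Sfrp1 hardly differed, at 339, 341 and 328 CPM, and the intervals of Cebpa overlapped (12.8, 15.2 and 14.2 CPM). Adipoq had 2 UMIs among the cells with the most Fabp4 and 0 in the rest. Counts of Fabp4 depend on depth, and the median depth of the 3 groups was 16801, 18595 and 20322 UMIs.

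**Figure D4:**
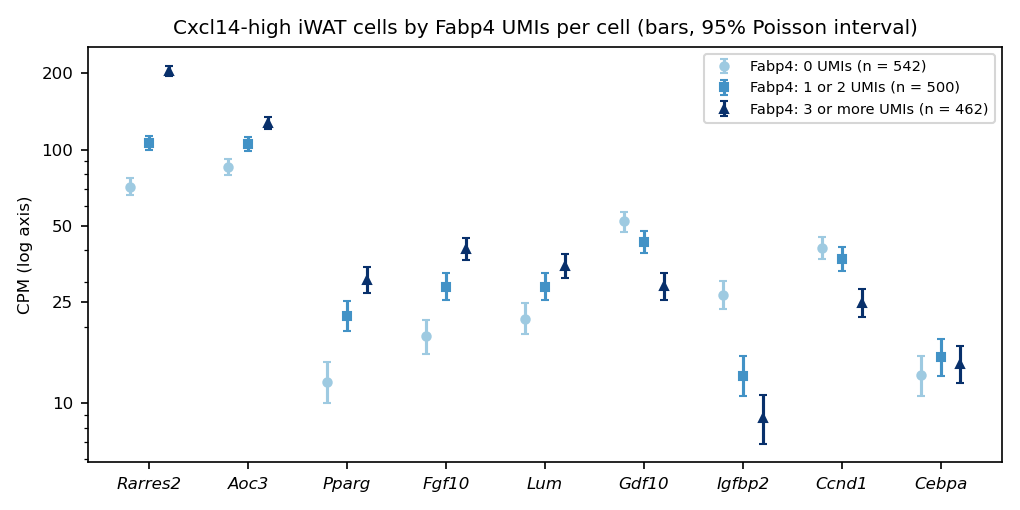
Levels of 9 genes, as CPM on a log axis with 95% Poisson intervals, in Cxcl14-high cells with 0 (n = 542), 1 or 2 (n = 500) and 3 or more (n = 462) UMIs of Fabp4. Rarres2, Pparg and Fgf10 are higher with more Fabp4 and Gdf10 and Igfbp2 are lower.

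Markers of other cell types had summed levels on either side of those in the other mesenchymal cells. The 13 epithelial markers summed to 59.7 CPM against 70.1 CPM. The endothelial markers summed to 55.3 against 53.4 CPM, with Flt1 at 17.0 against 12.6 CPM, Eng at 24.4 against 21.6 CPM, Kdr at 3.37 against 5.09 CPM, Ptprb at 2.91 against 5.40 CPM, and Tie1 and Cldn5 at 0 UMIs, against 12 and 3 UMIs in all the other cells. The 9 Schwann cell markers summed to 452 against 414 CPM, nearly all of it Ncam1 (444 against 410 CPM), with Gfra3 at 0 UMIs and S100b at 6.42 against 2.85 CPM, above 5 CPM only in the Cxcl14-high cells. The 9 mural markers summed to 83.6 against 79.9 CPM, most of it Cspg4 (57.2 against 48.1 CPM), with Mcam at 6.42 against 12.2 CPM, Des at a log2 ratio of -1.11 and Higd1b at 0 UMIs. Notch3 was higher, at 8.30 against 6.71 CPM, as were Abcc9 at 3.97 against 1.69 CPM and Myh11 at 3.41 against 2.70 CPM. The macrophage and immune markers summed to 27.9 against 18.1 CPM. Among them Csf1r was at 12.6 against 9.27 CPM and Lyz2 at 4.86 against 1.55 CPM, Cd68 was at 4.54 against 4.65 CPM, and Adgre1 had 0 UMIs, against 9 in all the other cells. Tyrobp at 0.852 against 0.090 CPM, Fcer1g at 2.48 against 1.16 CPM, C1qc at 0.887 against 0.294 CPM and C1qb at 0.497 against 0.192 CPM were low in both and higher in the Cxcl14-high cells, with intervals of the ratio above 0 on the log2 scale. Those 4 genes had 24, 70, 25 and 14 UMIs in the Cxcl14-high cells, in the same order. Their intervals treat each UMI as separate and do not cover UMIs that lie together in a few cells. How many cells held them was not examined. Of the 137 UMIs of Lyz2, 65.7% lay in 10 cells, and the highest count in a cell was 70. Cells with Ptprc and without Pdgfra held a summed immune level of 22079 CPM. An alternative left out all cells with a UMI of any of 9 markers, Cdh5, Kdr, Tie1, Lyz2, Cd68, Csf1r, Krt5, Krt14 and Adipoq. These include no Schwann or mural marker. Such a UMI was seen in 33.1% of the Cxcl14-high cells and 31.0% of the others. The rule applied to the cells left gave 1036 cells, of which 1006 were Cxcl14-high cells of the main choice. In that alternative 16 genes were 2-fold or more higher and 9 lower. That count held all 12 of the higher genes above and 8 of the 9 lower ones.

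The same rule in the iBAT library, whose counts did not enter the choice of the iWAT cells, gave 2428 cells of 24305 mesenchymal cells. The rule itself was set with earlier results of these data known. Summed over these iBAT cells, Cxcl14 made up 84.9% of the UMIs from the 4 genes, and it was seen in 98.4% of the cells. Fabp4 had a mean of 11.4 UMIs per cell. Of 3595 genes at 50 CPM or more, 23 (0.64%) were 2-fold or more higher and 0 (0%) lower. Of all 3515 genes at 50 CPM or more in iWAT, whatever their level in iBAT, 42.3% had a log2 ratio above 0 and 57.7% below 0 in iBAT, 1.28% and 0.37% were 1.5-fold and 2-fold or more higher there, and 0.114% were 2-fold or more lower. All 12 genes that were higher in iWAT were above 0, 11 of them 1.5-fold or more and 6 of them 2-fold or more higher, with Rarres2 at 1.61, Pcsk5 at 1.48, Aoc3 at 1.42 and Sfrp1 at 1.13. Of the 9 lower genes 8 were below 0, 1 by 2-fold or more, with Nrep at -1.20, which at 11.7 against 26.9 CPM lay under the 50 CPM asked of the count of lower genes in iBAT, Hmga1 at -0.98 and Ccnd1 at -0.61. Gzme at -0.02 and Irx1 at 0.05 were near the other iBAT cells. Across 3197 genes at 50 CPM or more in both libraries, the log2 ratios of the libraries had a Pearson correlation of 0.78 and a Spearman correlation of 0.77, given as a description of genes within 2 libraries. The chosen iBAT cells also carried adipocyte genes that the chosen iWAT cells lacked, as given below. How far these cells shape the shared ratios was not tested.

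The cells chosen in the 2 libraries differed in the adipocyte genes. The score itself holds Fabp4, a gene abundant in adipocytes. Fabp4 had a mean of 11.4 UMIs in the chosen and 2.22 in the other iBAT cells, and of 2.43 in the chosen iWAT cells. The values below therefore describe cells picked in part by an adipocyte gene. In iBAT Adipoq was at 34.2 CPM against 0.53 CPM, a log2 ratio of 6.01, Plin1 had a log2 ratio of 5.32, Lpl 1.51, Cebpa 1.01 and Pparg 0.84, and 4 of 9 adipocyte markers reached 5 CPM. These 4 passed that level only through the chosen cells, and the 9 markers summed to 74.7 CPM there and 2.97 CPM in the other iBAT cells. In iWAT the same 4 genes of the score picked cells with Adipoq at 0.071 CPM against 0.082 CPM. Ccl11 was higher in both (1.35 in iBAT), whereas Lum was at -0.29 in iBAT. The G2M median was -0.28 and the S phase median -0.12 there. Depot cannot be told apart from library, culture and everything else that differed between the 2 samples.

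**Figure D5:**
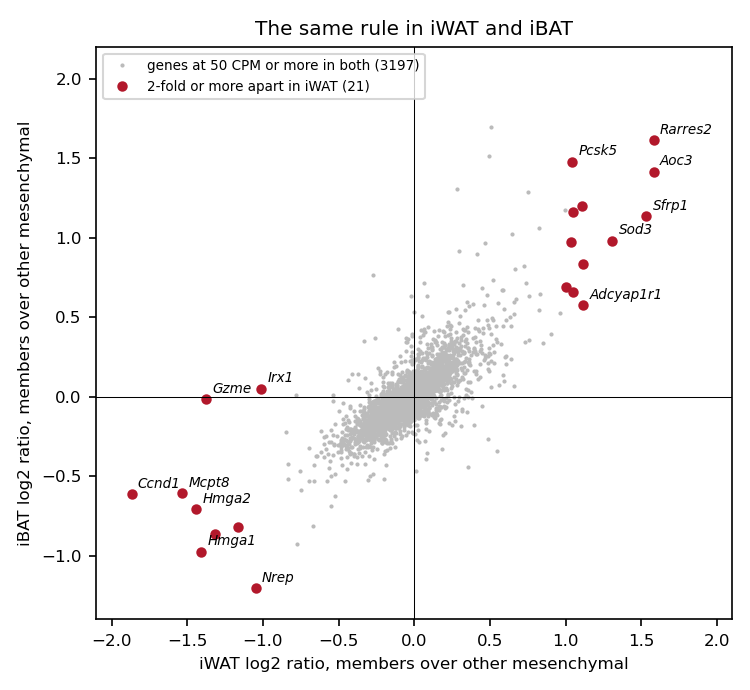
Log2 ratios, cells chosen by the rule over the other mesenchymal cells, in iWAT (horizontal) and in iBAT (vertical), for 3197 genes at 50 CPM or more in both libraries (grey) and for the 21 genes 2-fold or more apart in iWAT (red), whatever their level in iBAT. The 12 higher genes lie in the upper right, and Gzme and Irx1 lie near 0 in iBAT.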

How the data were processed

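Single-cell whole-transcriptome libraries of 2 pooled stromal cultures, 1 per depot, were made on BD Rhapsody cartridges. The deposited values are raw UMI counts per gene and cell. Per the labels and the published methods, the authors ran alignment and annotation on a commercial cloud pipeline, against mm39 according to the submitters' notes, and used Seurat 5.0.0 for later steps that are not in these files. The pipeline version, annotation and treatment of reads that match several genes are not given in the sources used here. The published methods name vehicle, FGF1 and FGF2 only and another age range, and the labels were followed.

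Cells with more than 200 and fewer than 7500 genes and under 30% mitochondrial UMIs were kept. Everything else was computed here in Python 3.11.15 (numpy 2.4.6, scipy 1.17.1, pandas 2.3.3). The total of each group left out the 4 score genes. The 10 genes used by the rule and mitochondrial genes entered no count. Ratios carry exact conditional binomial intervals, levels Poisson and shares Clopper-Pearson intervals. The ratio and interval routine was tested on simulated data. Doublets were called with Scrublet (scanpy 1.11.5, assumed rate 0.08) and kept. It marked 561 of 29744 iWAT cells (1.89%).

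The members, the 43 gene lists and the settings were chosen with earlier results of these data known. Named genes were up to 15 called genes in each direction, up to 4 genes per list with the largest ratios at 5 CPM or more, and a set of fixed genes. Other genes were named after their values were seen (Ucp1, Fndc1, Igfbp4, the relatives of Mcpt8 and Gzme, further list members and single markers). The alternatives changed the score, its threshold, the order of the Dpp4 limit, Pdgfra, depth, doublets, cells with other markers, cycling cells, the total, the centring, the comparison cells, the CPM minimum and the fold. Items withheld for evaluation are not reported here.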

Additional observations from a re-analysis of the deposited data

How the results depend on the processing

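With 1 library per depot there was no replicate to leave out. No paired analysis was possible because each depot has 1 sample and no test was made. Of the 12 higher and 9 lower genes in iWAT, every gene kept its sign in the 20 alternatives that recompute the ratios. Many of these reuse nearly all of the same cells, so a change of sign was hardly possible there. Aoc3, Rarres2, Sfrp1, Sod3, Ccnd1, Mcpt8 and Slc38a1 stayed 2-fold or more apart in all 20. The other called genes fell short of 2-fold in at least 1, with Mfap4 down to a log2 ratio of 0.46, Pcsk5 to 0.56 and Gzme to -0.65. The counts moved with the choice of cells. The top 5% of cells gave 23 higher genes, the score without Cxcl14 gave 23 higher and 16 lower, equal weight of the 4 genes gave 14 lower, and cells with 0 UMIs of 6 cycling genes gave 19 lower. Those cells numbered 156 against 1448, and among their 12 higher genes 6 were among the 12 of the main analysis. The score without Cxcl14 picked 1488 cells, of which 32.1% were Cxcl14-high cells of the main choice, and equal weight picked 1507, of which 47.1% were. The score of Fabp4 alone, added after the data were seen, gave 6 higher and 4 lower genes. The counts also moved with the threshold, to 36 and 35 at 10 CPM or more, 2 and 1 at 200 CPM or more, 1796 and 1047 with no CPM minimum, and 51 and 38 at 1.5-fold. Among cells with 0 UMIs of 6 cycling genes the log2 ratios of Ccl11 and Fgf21 turned, to -0.193863 and -0.222764, and the cause was not tested. Centring the ratios on their median, a shift of 0.05, gave 15 higher and 8 lower genes. Depth limits the low genes: those under 5 CPM got no ratio beyond the named ones.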
